A study of Mus musculus with 10 samples.

Results

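The 10 genes described here encode the receptor Csf1r and its ligands *Csf1* and *Il34*, the adaptors *Tyrobp* and *Fcer1g*, the receptors *Siglech* and *Fcgr3* that signal with such adaptors, and *Syk*, *Plcg2* and *Inpp5d*, which act downstream. They were chosen by name, with earlier results of these data known, and all 10 were among the 24453 genes of the count table. RNA-seq libraries had been made from layer 5 of the right primary motor cortex (M1) of 5 male *Fezf2-Gfp* reporter mice. These were hemizygous for the transgene of the line (Zfp312-EGFP)CO61GsatMmnc, and the study gives Swiss Webster as their background strain. Cholera toxin subunit B (CTB) conjugated to a far-red Alexa dye, a retrograde tracer, had been injected into left M1 on postnatal days 23 to 25, and the mice were 28 to 32 days old at collection. From each animal, cells with GFP and CTB (*Fezf2+ve* intratelencephalic projection neurons, IT-PNs) and cells with CTB only (*Fezf2-ve* IT-PNs) were sorted into 1 library each, which gave 5 libraries of each type. The sample records give mean yields of 11280 *Fezf2+ve* and 2688 *Fezf2-ve* cells, and the study's text gives another figure for the latter. The types were therefore defined by the GFP of a transgenic reporter and by tracer uptake, and all animals carried the reporter and the tracer.

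Csf1r is a receptor tyrosine kinase on which microglia, the resident macrophages of the brain, depend for survival. In the adult forebrain its ligand Il34 is made largely by neurons, whereas Csf1 is made by glia. Tyrobp (also called DAP12) and Fcer1g have short extracellular parts and carry an immunoreceptor tyrosine-based activation motif (ITAM) in the cytoplasm. When a partner receptor is engaged, Src family kinases phosphorylate the tyrosines of the motif, the kinase Syk docks there, and phospholipase Plcg2 is activated, while the lipid phosphatase Inpp5d (SHIP1) restrains the pathway.

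Depth on genes ranged from 107643 to 203379 reads per *Fezf2+ve* library (median 118134) and from 89138 to 217738 reads per *Fezf2-ve* library (median 168711). At this depth 3 reads, taken as the floor of detection, correspond to 13.8 to 33.7 CPM (counts scaled to a common library total) in a single library. Levels of genes and lists in each library and their means are in CPM also scaled by TMM, whereas floors and pooled ratios use library totals alone, so floors and levels are not on the same scale. The reads carry no stated molecular identifiers, so floors and counting intervals cover counting error only. *Fezf2* itself had 1 read in all, in the *Fezf2+ve* library of animal 5, so the counts do not check the sort by this gene. The study checked it by RT-PCR, with a *Fezf2* product in the fractions with GFP and CTB (n = 5) and none in those with CTB only (n = 5). Of the defining markers of cortical excitatory neurons, *Slc17a7* had 7 reads in *Fezf2+ve* and 4 in *Fezf2-ve* libraries. *Camk2a* had 43 and 545 reads, of which 529 were in the *Fezf2-ve* library of animal 3. Other genes of this list went the other way, such as *Snap25* (50 and 12 reads) and *Syt1* (54 and 18), both named after their values were seen. Of the 6 genes of the list tested below, 3 had a log2 fold change towards *Fezf2+ve* and 3 towards *Fezf2-ve*.

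Reads of *Csf1r*, *Tyrobp*, *Siglech* and *Fcer1g* were higher in the *Fezf2-ve* library in all 5 animals, and the libraries of the types did not overlap. All 10 genes together had 49 reads in *Fezf2+ve* and 1185 in *Fezf2-ve* libraries, or 62.5 ± 66.5 and 1386 ± 972 CPM (SD, n = 5 each). Of the *Fezf2-ve* reads, 534 were of *Csf1r* in animal 5. The *Fezf2+ve* sum was 179 CPM in animal 5 and at most 50.8 CPM in the other animals. Of the 10 genes, 8 passed the filter of at least 10 CPM in at least 2 libraries, and *Csf1* and *Il34* did not. Because a gene can pass through the type in which it is high, and because the genes were chosen with earlier results known, counts over these 8 and the shares of all genes beside them are a description only. None of the 8 was called by edgeR (quasi-likelihood test, animal as a block, Benjamini-Hochberg FDR at or below 0.1), which called 0 of all 7409 tested genes (0%). At an unadjusted p under 0.05 in that test, 4 of the 8 genes were higher in *Fezf2-ve* IT-PNs (*Csf1r*, *Tyrobp*, *Siglech* and *Fcer1g*), against 180 of all tested genes (2.43%). This number rested on single animals through *Siglech* and *Fcer1g*. Whichever animal was left out, the edgeR unadjusted p was at most 0.00499 for *Csf1r* and 0.00218 for *Tyrobp*. Without animal 2 the number was 2, with an edgeR unadjusted p of 0.0613 for *Siglech* and 0.0655 for *Fcer1g*. *Fcer1g* also had a p above 0.05 without animal 3 (0.14), 4 (0.0741) or 5 (0.0767). Over either direction 292 tested genes (3.94%) had such a p. DESeq2 with the same block called *Csf1r* and *Tyrobp*, against 55 of the 1664 genes to which it gave an adjusted p (3.31%) called in that direction. It gave no adjusted p to the other 6. Without the block, edgeR called *Csf1r*, *Tyrobp* and *Siglech*, against 350 of 7409 genes (4.72%) in that direction, and this count depended further on the settings of the test. The level was higher in the *Fezf2-ve* library of every animal for 4 members, against 186 tested genes (2.51%), and the types did not overlap for these 4, against 70 tested genes (0.945%). All 8 had a negative log2 fold change of *Fezf2+ve* over *Fezf2-ve*, with a median of -3.31, against 4043 tested genes (54.6%) and a median of -0.18 over all tested genes.

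**Figure D1:**
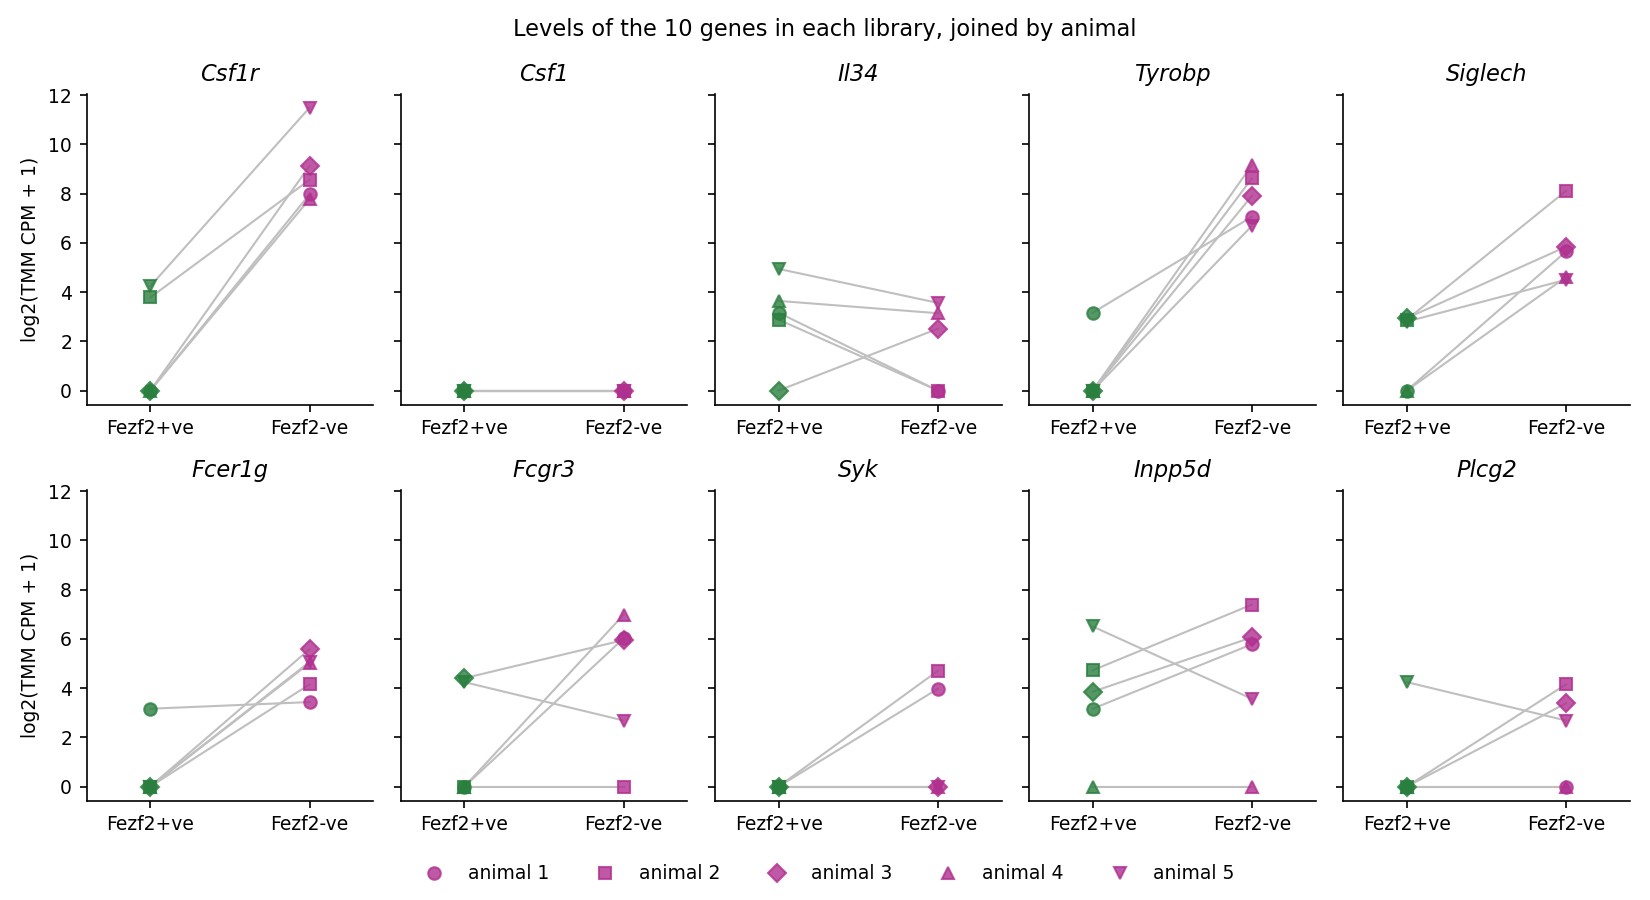
Level of each of the 10 genes as log2(CPM + 1), with CPM scaled by TMM, in *Fezf2+ve* (green) and *Fezf2-ve* (magenta) libraries, with the 2 libraries of an animal joined by a line and marked by the same symbol. *Csf1r*, *Tyrobp*, *Siglech* and *Fcer1g* lie higher in *Fezf2-ve* in 5 of 5 animals, *Il34* lies lower in 4 (in animal 4 from 1 read each), and *Csf1* has no read.

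For *Csf1r*, the receptor, animals 1 to 5 gave 0, 2, 0, 0 and 3 reads from *Fezf2+ve* cells and 51, 45, 119, 28 and 534 reads from *Fezf2-ve* cells. Every *Fezf2-ve* library was above every *Fezf2+ve* library, and animal 5 held 68.3% of all *Csf1r* reads in its *Fezf2-ve* library. The mean level was 6.11 ± 8.57 CPM in *Fezf2+ve* and 856 ± 1138 CPM in *Fezf2-ve* IT-PNs (SD, n = 5 each). Over pooled reads the ratio was 127 (exact 95% counting interval 54.2 to 392), and without animal 5 it was 94.5. The log2 fold change of *Fezf2+ve* over *Fezf2-ve* was -7.06 (SE 2.01), with an edgeR adjusted p of 0.914, a DESeq2 adjusted p of 8.78e-05 and, over all alternatives, adjusted p values from 8.78e-05 to 1. The paired levels on the log2(CPM + 1) scale differed by 7.38 ± 1.61 (SD, n = 5 animals; exact permutation test, two-sided, p = 0.0625, the smallest that 5 pairs allow). In these bulk libraries fewer cells of a type and less RNA per cell cannot be told apart. The gene lies on the plus strand of chromosome 18 (GRCm38, 61100598 to 61132149), where it overlaps *Hmgxb3* on the other strand and *Mir6983*, both with 0 reads in every library.

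The ligands had few or no reads. *Csf1* had no read in any of the 10 libraries, which allows up to 4.29 CPM over the pooled *Fezf2+ve* and 3.51 CPM over the pooled *Fezf2-ve* libraries (3 reads each). *Il34* had 1, 1, 0, 1 and 5 reads across *Fezf2+ve* libraries and 0, 0, 1, 1 and 2 in the *Fezf2-ve* libraries. It had more reads in *Fezf2+ve* in animals 1, 2 and 5, as many (1 and 1) in animal 4 and fewer in animal 3, and it was the only gene of the 10 with more reads in that type over all libraries. With TMM scaling animal 4 was also higher in *Fezf2+ve* (11.4 against 7.82 CPM, 1 read each). The ratio of *Fezf2-ve* over *Fezf2+ve* pooled reads was 0.409, with an exact 95% counting interval of 0.0901 to 1.53 that includes no difference. The paired difference on the log2(CPM + 1) scale was -1.08 ± 2.28 (SD, n = 5; exact permutation test, two-sided, p = 0.312) and -0.44 with log2(CPM + 10) (p = 0.188), and after downsampling the types had 2 reads each, so a difference in *Il34* was not detectable at this depth. The ligand genes lie on the minus strands of chromosomes 3 (107760469 down to 107741048, *Csf1*) and 8 (110805924 down to 110741829, *Il34*). *Il34* overlaps the antisense genes *Gm15894* and *Gm15895*, for which no counts were used here.

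The tested genes most like *Csf1r* across the 10 libraries, by Pearson correlation of log2(CPM + 1) among genes with at least 20 reads, were *Rps9* (r = 0.964), *Btg2* (0.960), *Ier2* (0.946), *Rad54l2* (0.912) and *Junb* (0.911). All 5 had more reads in *Fezf2-ve* libraries, for example 113 against 2 for *Btg2* and 154 against 10 for *Junb*. Those most like *Il34* were *Col19a1* (0.889), *St6galnac3* (0.877), *Ncam2* (0.861), *Ppp1cb* (0.817) and *1700012I11Rik* (0.790). The 10 libraries share their animals in pairs, *Il34* rests on 12 reads, and 228 of the 235 *Ppp1cb* reads were in 1 library, so these values are descriptions only.

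The ITAM is the feature that *Tyrobp* and *Fcer1g* share. In GENCODE transcripts on GRCm38 the coding stretch of 45 bases that holds it is shown for both, spliced, 5′ to 3′, with the codons of its tyrosines in capitals.
Tyrobp: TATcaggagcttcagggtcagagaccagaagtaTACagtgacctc
Fcer1g: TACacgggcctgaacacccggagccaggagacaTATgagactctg
In both genes the first 6 bases lie in exon 4 and the other 39 in exon 5 of 5. For *Tyrobp*, on the plus strand, these are chr7:30415670-30415675 and chr7:30417344-30417382, and for *Fcer1g*, on the minus strand, chr1:171230067-171230072 and chr1:171229889-171229927. Among the 10 genes only these 2 held the ITAM pattern, with 6 to 8 codons between its tyrosine-containing ends, in an annotated coding sequence. Over all 21901 coding genes 640 did (2.92%), so the pattern alone does not mark an adaptor.

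*Tyrobp* had 1, 0, 0, 0 and 0 reads across *Fezf2+ve* libraries and 27, 47, 51, 73 and 19 in the *Fezf2-ve* libraries. No library held more than 33.5% of its reads, a more even spread than that of *Csf1r*. Its mean level was 1.59 ± 3.55 CPM in *Fezf2+ve* and 288 ± 195 CPM in *Fezf2-ve* IT-PNs (SD, n = 5 each). The pooled ratio was 177, with a counting interval of 31.5 to 7038 because the denominator is a single read. The log2 fold change was -6.92 (SE 1.87, edgeR adjusted p = 0.914, DESeq2 adjusted p = 0.00107, 0.00107 to 1 over all alternatives). It had the smallest unadjusted p of all 7409 genes in the edgeR test with the block, and *Csf1r* had the next smallest. Without animal 1 no *Fezf2+ve* read of *Tyrobp* was left against 190 in *Fezf2-ve*, and its edgeR log2 fold change was -8.44.

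*Fcer1g*, which serves IgG and IgE receptors, had 1, 0, 0, 0 and 0 reads across *Fezf2+ve* libraries and 2, 2, 10, 4 and 6 in the *Fezf2-ve* libraries. It was higher in *Fezf2-ve* in 5 of 5 animals, although by 1 read in animal 1. After all libraries were downsampled to 89138 reads, *Fcer1g* had no read in either library of animal 1 and the number of members higher in every animal was 3. The pooled ratio was 19.6 (counting interval 3.2 to 807) and was 11.8 without animal 3, and the log2 fold change was -3.68 (SE 1.77, edgeR adjusted p = 0.999). Without animal 1 no *Fezf2+ve* read of *Fcer1g* was left against 22 in *Fezf2-ve*, and its edgeR log2 fold change was -5.28.

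*Siglech* encodes a receptor of the Siglec family that pairs with Tyrobp. It had 0, 1, 1, 0 and 1 reads across *Fezf2+ve* libraries and 10, 33, 12, 3 and 4 in the *Fezf2-ve* libraries. Of its reads, 50.8% were in the *Fezf2-ve* library of animal 2, and without that animal the pooled ratio went from 16.9 (counting interval 5.52 to 84.1) to 11.2. Its log2 fold change was -3.80 (SE 1.59, edgeR adjusted p = 0.999). *Fcgr3*, a low-affinity IgG receptor that signals through Fcer1g, had 0, 0, 3, 0 and 3 reads across *Fezf2+ve* libraries and 13, 0, 13, 16 and 1 in the *Fezf2-ve* libraries. Its types overlapped, with the *Fezf2-ve* library higher in 3 animals, lower in animal 5 and without a read of either type in animal 2. The pooled ratio for *Fcgr3* was 5.86 (counting interval 2.48 to 16.8) and ranged from 3.83 without animal 4 to 10.9 without animal 5. Over replicates the difference did not pass (log2 fold change -2.33, SE 1.70, edgeR adjusted p = 0.999). Its edgeR unadjusted p of 0.17 was 0.0437 without animal 5 and 0.0465 after downsampling.

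**Figure D2:**
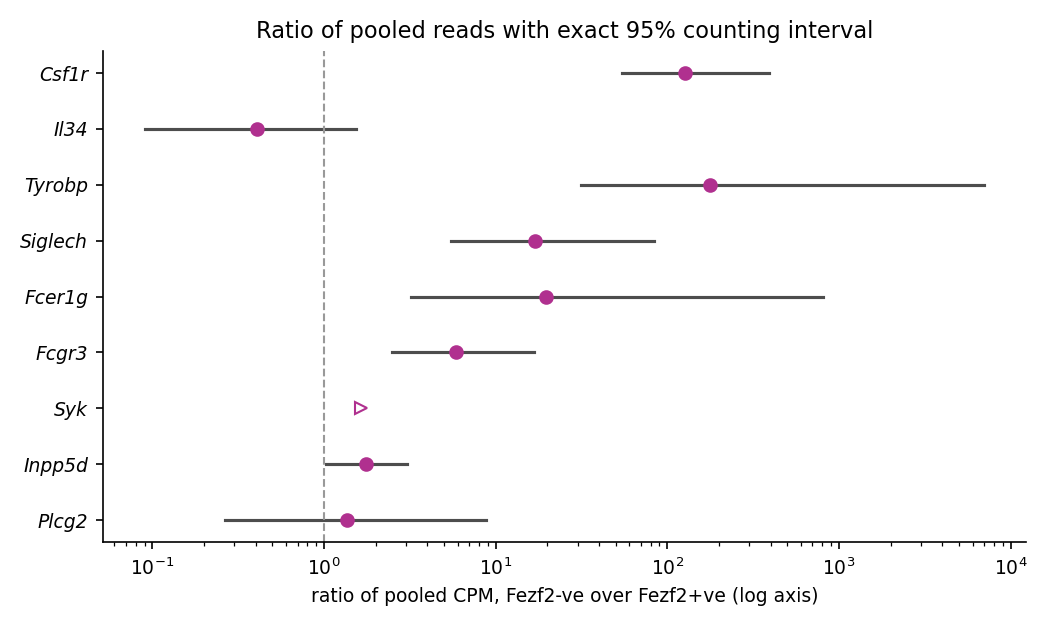
Ratio of pooled CPM in *Fezf2-ve* over *Fezf2+ve* libraries for the 9 genes with reads, on a log axis, with exact 95% counting intervals as lines. The open triangle for *Syk* is its ratio against a floor of 3 reads, without an interval. The intervals of *Plcg2* and *Il34* cross 1, while those of *Csf1r* and *Tyrobp* lie above 31.

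The types overlapped or shared libraries at 0 for all 3 genes downstream of the adaptors, of which *Syk* and *Plcg2* had few reads. *Syk*, the kinase that docks on the motif, had no read in *Fezf2+ve* libraries. It had 3 reads each from *Fezf2-ve* cells of animals 1 and 2 only. Set against a floor of 3 reads over the *Fezf2+ve* libraries, its ratio was 1.63. This value leaves out the counting error of the *Fezf2-ve* reads, so it is not a lower limit. It also needs both animals, since without either the *Fezf2-ve* libraries had 3 *Syk* reads, no more than the floor. *Plcg2* had 3 reads in *Fezf2+ve*, all in animal 5, and 0, 2, 2, 0 and 1 in *Fezf2-ve* libraries. Its pooled ratio was 1.36 (counting interval 0.265 to 8.77) and was 0.772 without animal 2 and 0.846 without animal 3. Without animal 5 no *Fezf2+ve* read of *Plcg2* was left against 4 in *Fezf2-ve*, and its edgeR log2 fold change went from -1.23 to -3.03. *Inpp5d* had 1, 4, 2, 0 and 15 reads across *Fezf2+ve* libraries and 11, 20, 14, 0 and 2 in the *Fezf2-ve* libraries. It was higher in *Fezf2-ve* in 3 animals and lower in animal 5, and its pooled ratio of 1.75 (counting interval 1.03 to 3.04) ranged from 1.16 without animal 2 to 5.00 without animal 5. The edgeR log2 fold changes were -2.94 (SE 2.34) for *Syk*, -1.23 (SE 2.24) for *Plcg2* and -1.41 (SE 1.64) for *Inpp5d*, each with an adjusted p of 0.999. A fitted value such as that of *Syk*, with 1 type at 0, depends on the prior count of the fit and is no bound.

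The RefSeq promoter table (GRCm38.p6) held 9 starts of 7 of the 10 genes. The 250 bases before each start were searched on both strands for GAGGAA, the core letters bound by the myeloid factor PU.1, and for 4 related spellings, all chosen with the members' results in view. GAGGAA was present before 4 of the 9 starts (*Fcgr3*, *Inpp5d* and *Syk*; the 2 *Fcgr3* windows overlap and share 1 match, here and for GAGGAAG) and in 23.3% of all 32851 promoters of the table. The others were GAGGAAG (3 of 9, 10.6% of all), GGAAGT (2 of 9, 19.7%), AGGAAGT (1 of 9, 7.69%) and GAGGAAGT (1 of 9, 2.44%), which overlap each other. The *Inpp5d* window, chr1:87620062-87620311 on the plus strand, was the only one with all 5 and is shown with GAGGAA in capitals.
Inpp5d: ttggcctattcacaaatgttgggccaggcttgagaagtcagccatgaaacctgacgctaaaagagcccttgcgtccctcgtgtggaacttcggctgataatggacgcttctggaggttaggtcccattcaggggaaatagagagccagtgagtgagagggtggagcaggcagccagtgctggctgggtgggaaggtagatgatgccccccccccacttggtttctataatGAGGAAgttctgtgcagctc
These matches are letters in a window, not measured binding.

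Markers of other cells were compared in the same libraries. The 20 microglial markers outside the 10 genes had 121 reads in *Fezf2+ve* and 5077 in *Fezf2-ve* libraries. Their summed level was 309, 152, 86.9, 149 and 191 CPM from animals 1 to 5 in *Fezf2+ve* and 6161, 3334, 6007, 13869 and 1983 CPM in *Fezf2-ve* libraries, so it was higher in *Fezf2-ve* in 5 of 5 animals. All 18 that passed the filter had a negative log2 fold change of *Fezf2+ve* over *Fezf2-ve* (median -4.20), as did 54.6% of all tested genes. DESeq2 called 11 of them, against 55 of the 1664 genes with an adjusted p (3.31%) in that direction, while edgeR with the block called 0 (11 at an unadjusted p under 0.05, against 180 of 7409 tested genes, 2.43%). Of the 20 markers, 3 (*Itgam*, *Trem2* and *Ptprc*) also belong to the pathway list. The most abundant was *Ptprc*, with 1390 of 1422 reads in the *Fezf2-ve* library of animal 4. Without *Ptprc*, a choice made after its values were seen, the *Fezf2-ve* sums were 6088, 3301, 5978, 3002 and 1978 CPM. The defining markers *P2ry12* (4 reads in *Fezf2+ve*, 518 in *Fezf2-ve*), *Cx3cr1* (26 and 203), *Tmem119* (3 and 123) and *C1qa* (2 and 103) had reads in both types. The microglial markers thus moved with *Csf1r* and *Tyrobp*, and their part in those results was not tested. Across the *Fezf2-ve* libraries, animal 5 had the lowest sum of the microglial markers, the highest *Csf1r* level (2878 CPM) and the lowest *Tyrobp* level (102 CPM). Animal 4 had the highest sum, but not without *Ptprc*. Its *Tyrobp* level was the highest with TMM scaling (571 CPM, against 393 in animal 2), but after downsampling animal 2 had the most *Tyrobp* reads (47, against 24 in animal 4).

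Of other blood and immune cells, the lymphocyte list had 0 of 7 genes with a read and the monocyte and granulocyte list had 1 read, on *Plac8*, with *S100a8*, *S100a9*, *Ccr2*, *Cd3e* and *Cd79a* at 0 in all libraries. Perivascular macrophage genes had 15 and 163 reads in *Fezf2+ve* and *Fezf2-ve* libraries, of which 137 of the latter were *Stab1* in animal 3, their sum was higher in *Fezf2-ve* in 4 of 5 animals, and the defining markers had 2 and 4 (*Mrc1*) and 1 and 0 (*Pf4*). Red cell genes also moved with the result, with 1412, 127, 13.4, 0 and 0 CPM in *Fezf2+ve* and 5842, 4178, 291, 790 and 10.8 CPM in *Fezf2-ve* libraries. All 6 that passed the filter had a negative log2 fold change (median -4.07). edgeR with the block called 0 of them (6 at an unadjusted p under 0.05 and higher in *Fezf2-ve*, against 2.43% of all tested genes), and DESeq2 called 2, against 3.31% of the genes with an adjusted p. *Hbb-b1* was the most abundant of these, tied with *Hbb-bs* at the same reads in every library. *Hba-a1* had 16 and 233 reads and *Alas2* 0 and 2. Near-identical haemoglobin copies share reads in this counting. All 6 tested genes fall into pairs with the same reads in every library, and the 2 genes called by DESeq2 are such a pair. The numbers of genes and the sums above therefore count the same reads more than once. The part of red cells in the result was not tested.

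The other lists did not share the direction in every animal. Astrocyte genes had a higher sum in *Fezf2-ve* in 1 of 5 animals (*Slc1a2* most abundant; *Aqp4* 9 and 3 reads, *Gja1* 7 and 24, *Fezf2+ve* first). Oligodendrocyte genes were higher in 2 (*Mog* 66 and 14, *Mobp* 17 and 21), precursor genes in 2 (*Vcan*; *Pdgfra* 356 and 384, *Cspg4* 175 and 67) and endothelial genes in 2 (*Flt1*; *Cldn5* 3 and 4, *Pecam1* 3 and 6). Cortical excitatory neuron genes were higher in 2 animals, and inhibitory neuron genes, with 1 read in *Fezf2+ve* and 10 in *Fezf2-ve* libraries, in 4 (*Gad1* 0 and 4, *Gad2* 1 and 5, *Slc32a1* 0 and 0).

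**Figure D3:**
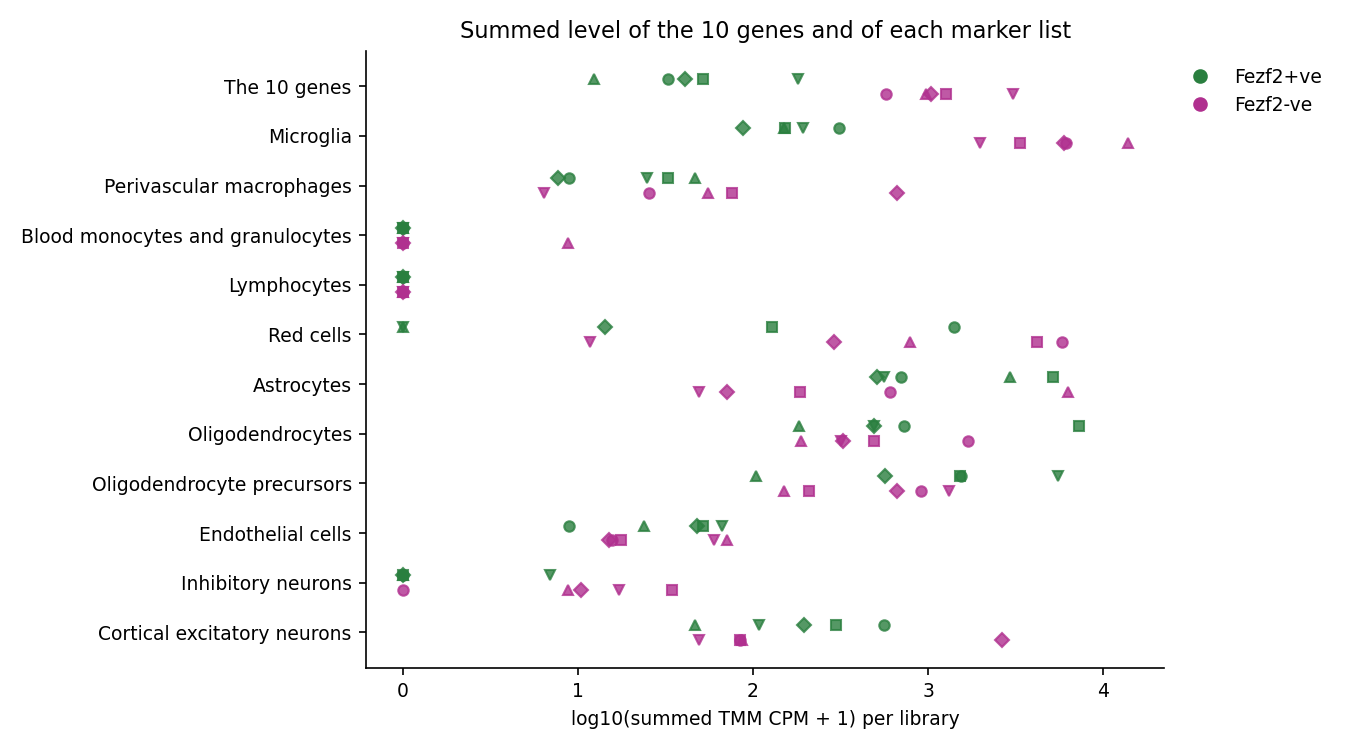
Summed level of the 10 genes and of each marker list in every library, as log10(summed CPM + 1) with TMM scaling, in *Fezf2+ve* (green) and *Fezf2-ve* (magenta) libraries, with 1 symbol per animal. The 10 genes and the microglial markers are separated by type, and lymphocyte genes are at 0 in all 10 libraries.

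Of 69 other genes of the pathway, 68 were in the count table and 39 passed the filter. edgeR with the block called 0 of these 39, and 29 had a negative and 10 a positive log2 fold change (median -1.91), against 54.6% negative and a median of -0.18 over all tested genes. At an unadjusted p under 0.05, 5 were higher and 0 lower in *Fezf2-ve* IT-PNs, namely *Itgam*, *Btk*, *Pik3ca*, *Prkcd* and *Pik3cd*, the last named after its value was seen, against 180 of all 7409 tested genes (2.43%) higher. DESeq2, which gave no adjusted p to *Btk*, *Prkcd*, *Pik3cd* and others of the 39, called *Itgam*, the integrin chain of complement receptor 3, which had 4 reads in *Fezf2+ve* and 168 in *Fezf2-ve* libraries (log2 fold change -4.99, SE 1.91, DESeq2 adjusted p = 0.0419, edgeR adjusted p = 0.999). *Itgam* was higher in *Fezf2-ve* in 4 animals and lower in animal 5 (3 reads in *Fezf2+ve* and 1 in *Fezf2-ve*), so the types overlapped. *Btk*, a kinase that activates Plcg2, had 0 and 39 reads and was higher in *Fezf2-ve* in 5 of 5 animals, but 32 of its reads were in the *Fezf2-ve* library of animal 3. *Prkcd*, a protein kinase C, had 1 and 54 reads, of which 45 were in the *Fezf2-ve* library of animal 1. Without the block, 8 of the 39 were called higher in *Fezf2-ve* and 3 higher in *Fezf2+ve* IT-PNs, against 350 and 296 of all 7409 tested genes. These calls included *Ubash3b*, *Tec*, *Pik3ca*, *Ptprc*, *Akt1* and *Sos1*, each with over 90% of its reads in 1 library, and the number of all genes called without the block was 40 with a robust prior and 0 with the newer quasi-likelihood method added, both chosen after seeing the data.

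Most reads of several of the 20 pathway genes with the most reads came from a single library. For 7 of the 20 over 90% did, as for *Ubash3b* (5666 of 5706), *Sos1* (4108 of 4204), *Tec* (824 of 839), *Akt1* (302 of 307), *Pik3ca* (200 of 203) and *Vav1* (173 of 190) as well as *Ptprc*. These values describe a library more than a type. The kinase *Fyn* (19 and 18 reads in *Fezf2+ve* and *Fezf2-ve*), the kinase subunit *Pik3r1* (135 and 456) and the exchange factors and adaptors *Gab2* (21 and 261), *Vav2* (4 and 32) and *Vav3* (38 and 12) had an edgeR adjusted p of 0.999, as did the ubiquitin ligase *Cblb* (17 and 47). Among these, 410 *Pik3r1*, 245 *Gab2*, 36 *Cblb*, 34 *Vav3* and 23 *Vav2* reads came from 1 library each. Of the kinase receptors related to Csf1r, *Pdgfra* had a log2 fold change of -0.08 (SE 1.57) and *Kit* one of 1.71 (SE 1.66), with 123 of 161 *Kit* reads in the *Fezf2+ve* library of animal 4. *Ptprz1*, another proposed receptor of Il34, had 61 reads in *Fezf2+ve* and 111 in *Fezf2-ve* libraries (log2 fold change 0.36, SE 1.42), with 73 of the latter in animal 1, and without the block its log2 fold change was -0.34.

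**Figure D4:**
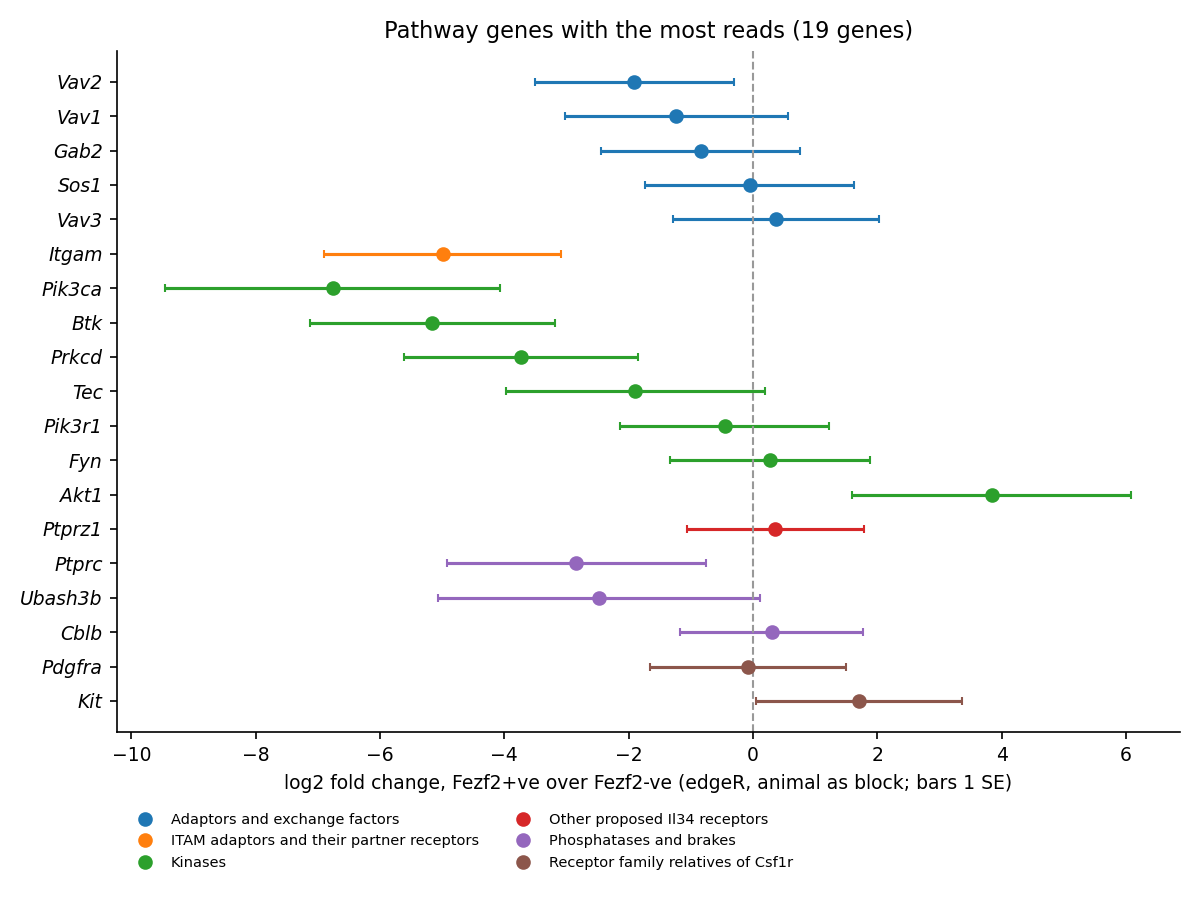
Log2 fold change of *Fezf2+ve* over *Fezf2-ve* (edgeR with the animal as a block, bars 1 SE) of 19 of the 20 pathway genes with the most reads, coloured by role. Kinases span from -6.76 for *Pik3ca*, with 0 reads in *Fezf2+ve* and 200 of 203 reads in 1 *Fezf2-ve* library, to 3.84 for *Akt1*, with 302 of 307 reads in 1 library.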

How the data were processed

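The authors demultiplexed and trimmed reads, mapped them to ERCC sequences or mm10 with TopHat2 (2.1.1 in the submitters' processing notes) and counted them with BEDTools multiCov (2.26.0) on RefFlat genes. They deposited these counts without normalization. multiCov counts a read on every gene it overlaps, and the use of strand is not given in the sources used here. A deposited table of the authors' own DESeq2 comparison holds fold changes and p-values and was not used.

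Libraries were grouped and paired by the sample titles. Same-numbered libraries come from the same animal. Their deviations from the type means correlated at -0.027 to 0.097 over the tested genes, and no 2 of the 10 libraries were identical. For animals 2, 4 and 5, but not 1 and 3, the highest value with another number was larger (0.119, 0.039 and 0.039). The counts therefore do not show the pairing. The 7409 genes that reached 10 CPM in 2 or more libraries entered edgeR 4.0.16 (R 4.3.3; TMM, glmQLFit with default settings, which in this version use the legacy quasi-likelihood method; animal as a block; FDR at or below 0.1). DESeq2 1.42.0 was the alternative tool. Both were tested on simulated data. With the spread between libraries seen here, edgeR with the block did not recover the known changes. DESeq2 recovered a minority while also calling unchanged genes. In such data neither an absence of edgeR calls with the block nor a DESeq2 call is therefore firm. Whether this holds for single genes such as *Csf1r* and *Tyrobp* was not tested. SEs of edgeR were calculated from the fold change and the F statistic. Pooled ratios have exact conditional (Clopper-Pearson) intervals at 95%. Paired log2(CPM + 1) levels were compared with an exact sign-flip permutation test over 32 assignments. Python 3.11.15, numpy 2.4.6, pandas 2.3.3 and scipy 1.17.1 were used.

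Alternatives were no block, DESeq2, other size factors, library size, ERCC scaling, no or a stricter filter, downsampling, other thresholds and a pseudocount of 10, and each animal left out. After the first numbers of called genes were seen, and found to depend on edgeR's settings, 24 combinations of library size, robust prior, estimated dispersion, block and quasi-likelihood method were run. The default fit was kept as the reported one and was not chosen by its number of calls. Named genes are the 10 genes, the 20 pathway genes with the most reads among those tested, the most abundant and defining marker of each list, and the 5 genes most like *Csf1r* and *Il34*. Values of a few genes under this rule are not reported here. The 10 genes and the lists were chosen with earlier results of these data known.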

Additional observations from a re-analysis of the deposited data

Results flagged for a closer look

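Within the 5 libraries of a type, a library was singled out where its gap to the nearest other exceeded 0.71 of the range (Dixon's 95% value). This held in 14 of 34 sets of 5 values, where chance alone gives about 1 in 20, and sparse counts meet it easily. The 14 leave out *Tyrobp* and *Fcer1g* (1 read each, in animal 1) and *Plcg2* (3 reads, all in animal 5) in *Fezf2+ve* libraries. These also meet the rule, since the other *Fezf2+ve* libraries had no read of them. Among the 10 genes, *Csf1r* stood at 2878 CPM in the *Fezf2-ve* library of animal 5 (next 558), *Siglech* at 276 CPM in the *Fezf2-ve* library of animal 2 (next 56.3) and *Inpp5d* at 89.3 CPM in the *Fezf2+ve* library of animal 5 (next 25.4). The sum of the 10 genes stood apart in both libraries of animal 5, at 179 CPM in *Fezf2+ve* and 3067 CPM in *Fezf2-ve*. Of the marker lists in *Fezf2-ve* libraries, perivascular macrophage genes stood at 662 CPM and cortical excitatory neuron genes at 2633 CPM in animal 3, astrocyte genes at 6278 CPM and monocyte and granulocyte genes at 7.82 CPM (1 read) in animal 4, and oligodendrocyte genes at 1687 CPM in animal 1. In *Fezf2+ve* libraries, red cell genes stood at 1412 CPM in animal 1, oligodendrocyte genes at 7291 CPM in animal 2, and precursor genes at 5532 CPM and inhibitory neuron genes at 5.95 CPM (1 read) in animal 5.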

How the results depend on the processing

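The log2 fold changes of the 8 tested members were negative in all 142 values under the alternatives, and 8 of those values, for *Csf1r*, *Tyrobp* and *Siglech*, passed the threshold. All 8 came from DESeq2 or from fits without the replicate block. edgeR with the block called 0 genes and 0 members. DESeq2 with the block called 98 genes (55 higher in *Fezf2-ve*, 43 in *Fezf2+ve*) and 2 members, and an unadjusted p under 0.05 in the edgeR fit with the block gave 292 genes and 4 members. With no replicate block edgeR called 646 genes (350 and 296) and 3 members. That last number was not stable. In fits chosen after seeing the data and run without the block, the newer quasi-likelihood method called 279 genes and 3 members, a robust prior called 40 genes and 0 members, and both together called 0 genes. With the robust prior and no block *Csf1r* and *Tyrobp* still had log2 fold changes of -6.88 and -6.95 and both had an adjusted p of 0.103, just over the threshold (0.105 with both). Over 24 combinations of edgeR settings, also run after seeing the data, calls ranged from 0 to 646 in the 12 without the block and were 0 in all 12 with it, where 284 to 311 genes had an unadjusted p under 0.05. The calls of members without the block therefore depend on the settings, and the cause was not tested.

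Leaving out each animal gave 0 to 0 called genes, 0 to 0 called members and 4 to 4 members higher in *Fezf2-ve* in every remaining animal, which says nothing about stability, since 0 calls leave none to lose and the last number cannot fall below 4 when an animal is dropped. Members with an unadjusted p under 0.05, counted this way after seeing the data, numbered 2 to 4. Members higher in every animal numbered 4 with ERCC scaling and 3 after downsampling. ERCC scaling moved the median log2 fold change of all tested genes from -0.18 to -0.45. With log2(CPM + 10) the paired difference was 5.17 for *Csf1r*, 4.46 for *Tyrobp*, 2.28 for *Siglech* and 1.64 for *Fcer1g*, all with the smallest possible exact permutation p of 0.0625. Depth limits *Csf1*, *Il34*, *Syk* and *Plcg2*, with at most 12 reads each.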
